A study of Mus musculus with 2 samples.

Results

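Prostaglandins and leukotrienes are lipid signals made on demand from arachidonic acid, a fatty acid held in membranes. The 10 enzyme genes described here were taken by name from these pathways and followed through the cells of the mouse dural meninges, the outermost membrane around the brain. They encode the cyclooxygenases Ptgs1 and Ptgs2, the prostaglandin synthases Ptgds, Hpgds, Ptges and Ptgis, the prostaglandin-degrading Hpgd, and the leukotriene genes Alox5, Alox5ap and Ltc4s. All 10 of the 10 were present among the 27998 genes of the count matrices. Each was described by its level in every cell class of each library and by how much of that level came from a single cell.

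Single cells were profiled by droplet sequencing in 1 library of Il33 KO mice (Il33mcherry/mcherry, both copies carrying the H2B-mCherry allele) and 1 library of het mice (Il33mcherry/+, which carry the same allele on 1 copy and are no wild type). All mice were at postnatal day 14. Each genotype was a pool of 5 to 8 mice per sex, so no animal can be told from another and there is no replicate check. Dura was digested at 37 degrees Celsius for 30 min, and CD45+CD11b- cells, gp38+CD31- cells and all viable cells were mixed in parts of 1, 1 and 2, a sort that sets the shares of cell classes.

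Cyclooxygenases, constitutive Ptgs1 and inducible Ptgs2, turn arachidonic acid into the intermediate PGH2, and terminal synthases then decide which prostaglandin a cell makes. Ptgds and Hpgds give PGD2, Ptges gives PGE2 and Ptgis gives prostacyclin, while Hpgd inactivates prostaglandins. In the other branch Alox5, helped by the membrane protein Alox5ap, makes leukotriene A4, which Ltc4s couples to glutathione to give the cysteinyl leukotrienes. Ptgds is a known product of the leptomeninges and also carries small lipids in cerebrospinal fluid, and mast cells and macrophages are known sources of PGD2 and cysteinyl leukotrienes.

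The KO library held 6594 annotated cells with a median of 12204.5 unique molecular identifiers (UMIs, single captured RNA molecules), and the het library held 5950 with a median of 12746.5. Between the libraries 36 barcodes were shared, 14 of them among annotated cells. A level in CPM is a gene's UMI sum in a class, scaled by every UMI of that class in the same library. Brackets after a ratio of KO over het hold an exact 95% interval for counting error. With 1 library per genotype no test was possible and no p-value is given, and in class sums fewer expressing cells and less RNA per cell cannot be told apart unless counts per cell are given. Il33 itself, the check of the labels, had 9.67 CPM in KO and 43.5 CPM in het, a ratio of 0.222 (0.207 to 0.239). Classes are the deposited clusters and 4 deposited names of lymphoid cells. A cluster is called "like" a cell type where the markers of that type led. Cluster 3 was macrophage-like with 7 of 7 markers, and 26.1% of its KO and 24.2% of its het cells were among the 8% of barcodes with the highest doublet score. Cluster 5 was arachnoid barrier-like with 6 of 8, cluster 7 fibroblast-like with 7 of 7, cluster 4 osteolineage-like, cluster 8 blood endothelial-like, cluster 14 dendritic cell-like, cluster 17 neuron-like, cluster 18 monocyte-like, and clusters 1, 2, 6, 10 and 16 B cell-like. Clusters 0, 11, 12, 13 and 15 keep their numbers. Cluster 0 was led by Slc47a1, Cxcl14 and Smoc1 and had 4 of 7 fibroblast markers. Cluster 11 was led by Cd209a and Cd209d, and cluster 13 held all 7 macrophage and all 7 neutrophil markers.

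**Figure D1:**
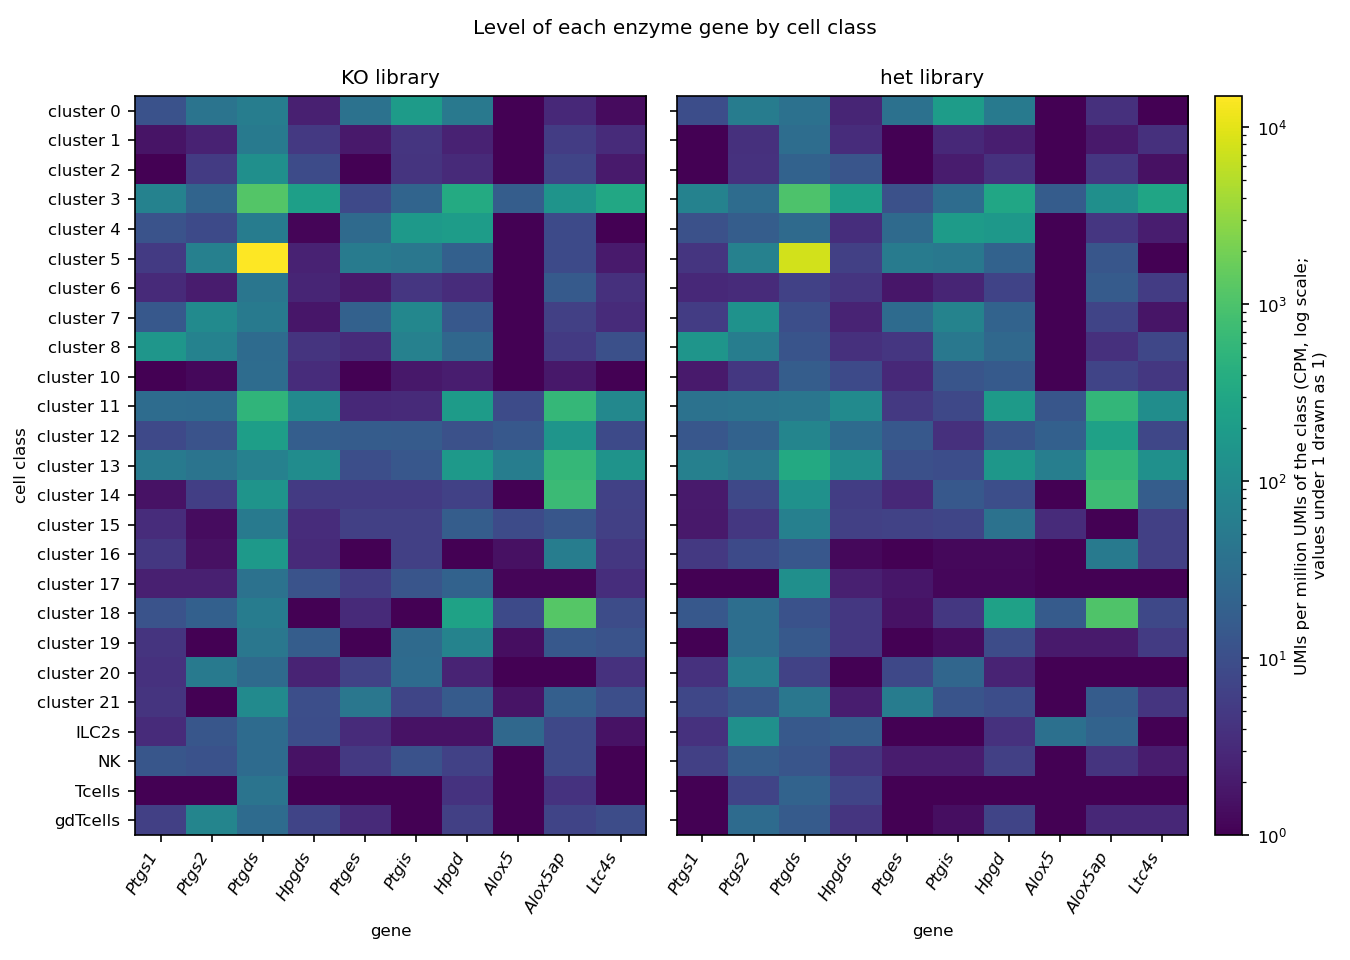
Level of the 10 genes (columns) in 25 cell classes (rows) in the KO library (left) and the het library (right), as CPM on a log colour scale. Each gene is bright in few classes, and Ptgds in cluster 5 is the brightest field of both panels, at 14964 CPM in KO and 7802 CPM in het.

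Ptgs1 was led by blood endothelial-like cluster 8, at 156 CPM in KO and 149 CPM in het, a ratio of 1.05 (0.905 to 1.22). Macrophage-like cluster 3 followed with 71.9 CPM in KO and 71.0 CPM in het, and cluster 13 with 51.8 CPM in KO and 65.8 CPM in het. The level in cluster 8 lay above that in cluster 3 in both libraries, beyond the counting intervals. B cell-like clusters, pooled as a reference level, had 2.02 CPM in KO and 2.16 CPM in het. In fibroblast-like cluster 7 Ptgs1 had 14.0 CPM in KO and 5.58 CPM in het, a ratio of 2.51 (1.59 to 4.08) and 2.43 without the top cell of each library, but 0.949 in female cells alone. In cluster 12 it had 8.32 CPM in KO and 13.4 CPM in het, a ratio of 0.622 (0.378 to 1.01), and 1.27 with each cell weighing the same.

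Ptgs2 (chr1:150100031-150108227, plus strand, GRCm38) is the inducible cyclooxygenase. Its promoter is shown because the gene differed between the libraries in opposite directions in ILC2s and gdTcells. The 250 bases before the start (RefSeq, GRCm38.p6, chr1:150099781-150100030, plus strand) are given with matches to TTGCNNAA, a core of C/EBP sites, and to GAGGAA, a core of PU.1 sites, in capitals.
Ptgs2 promoter: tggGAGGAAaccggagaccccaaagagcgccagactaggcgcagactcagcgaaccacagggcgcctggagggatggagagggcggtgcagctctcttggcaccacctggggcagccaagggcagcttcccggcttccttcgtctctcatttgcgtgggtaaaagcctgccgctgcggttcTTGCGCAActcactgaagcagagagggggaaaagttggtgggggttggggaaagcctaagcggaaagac
TTGCNNAA, searched on both strands as all motifs here, was in 9.56% of 32851 windows of the same length, and GAGGAA in 23.3%. TATAAA, in 12.4% of windows, and CGTCA, a core of the cyclic AMP response element in 17.8%, were not among the letters of this window. Only the 250 bases before this annotated start were searched. Their absence here does not show that the Ptgs2 promoter lacks such sites, which may lie past that start.

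Ptgs2 was highest in fibroblast-like cluster 7, with 99.3 CPM in KO and 137 CPM in het, a ratio of 0.725 (0.645 to 0.814). ILC2s (group 2 innate lymphoid cells, lymphocytes known to respond to IL-33) came next by the mean of both libraries, with 12.9 CPM in KO and 124 CPM in het, and cluster 5 had 65.4 CPM in KO and 68.6 CPM in het. B cell-like clusters had 2.61 CPM in KO and 3.98 CPM in het. The ratio was under 1 in 11 of the 13 classes with at least 50 UMIs, with a median of 0.725. It passed 1.5-fold downward in 4 classes, ILC2s and clusters 4, 12 and 18, and upward in gdTcells (the deposited name of gamma-delta T cells). Over all genes and 22 classes 4.36% of pairs were lower and 3.77% higher by that rule. Cluster 4 had 8.83 CPM in KO and 16.8 CPM in het, a ratio of 0.526, which was 0.671 without the top cells, 2.01 in female cells and 1.23 with each cell weighing the same. Cluster 18 had 18.9 CPM in KO and 32.5 CPM in het, a ratio of 0.582 and 0.682 without them. Cluster 12 had 11.9 CPM in KO and 20.2 CPM in het.

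In ILC2s the 8 KO UMIs of Ptgs2 lay in 6 of 65 cells and the 93 het UMIs in 13 of 66 cells. A single het cell held 43 of them and the next cells 18 and 9, while no KO cell held more than 3. The ratio of 0.104 (0.0438 to 0.214) was 0.119 without the top cell of each library and 0.165 (0.0624 to 0.372) without the cells of highest doublet score, which made up 3.08% of KO and 16.7% of het ILC2s. In female cells it was 0.293 (0.0859 to 0.804), and in male cells 0.0540 (0.0109 to 0.165). In gdTcells the direction was the other one, with 78.6 CPM in KO and 29.0 CPM in het, a ratio of 2.71 (1.64 to 4.68). The 76 KO UMIs lay in 16 of 102 cells, the top cells having 25, 13 and 6, and the 20 het UMIs in 11 of 76 cells, the top cells having 5, 3 and 2. Among gdTcells split by sex the ratio came to 3.11 for female and 3.58 for male cells.

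Early response genes, a list of 10 chosen after these values were seen that includes Fos, Jun, Egr1 and Atf3, were set beside Ptgs2. Together they had 5342 CPM in KO and 7121 CPM in het ILC2s, a ratio of 0.750, and 7527 CPM in KO and 6485 CPM in het gdTcells, a ratio of 1.16. In cluster 0, where Ptgs2 had 40.6 CPM in KO and 57.8 CPM in het, they had 6046 CPM in KO and 8781 CPM in het. In cluster 18, where Ptgs2 was lower in KO, their ratio was 1.23. Their part in the Ptgs2 values was not tested.

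**Figure D2:**
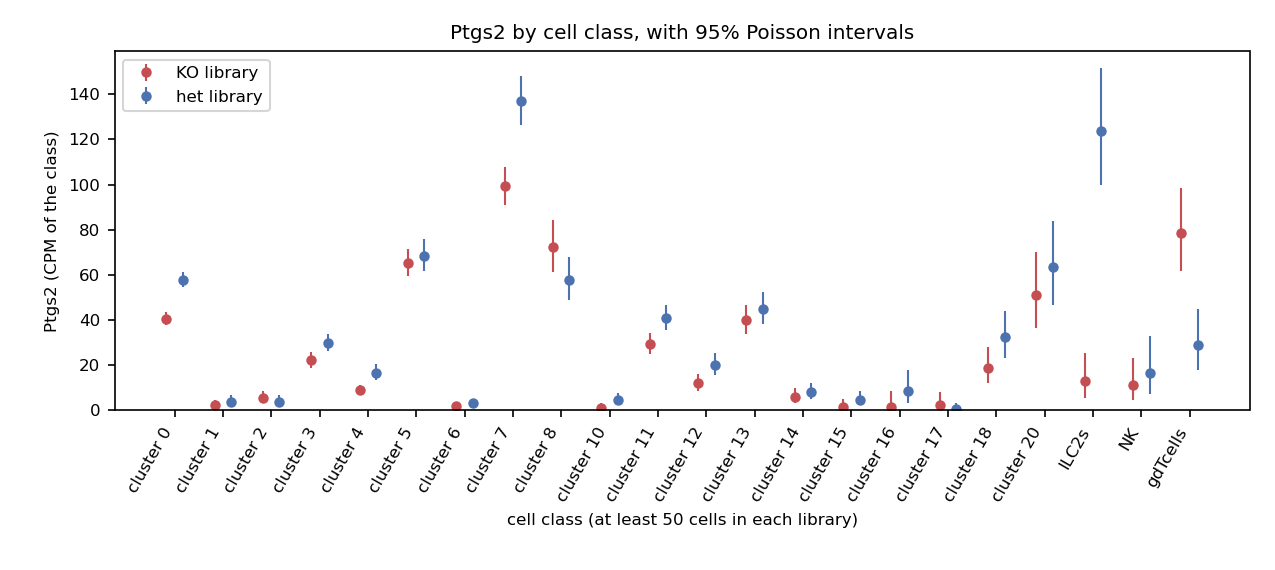
Ptgs2 level (CPM, vertical axis) in the 22 classes with at least 50 cells in each library, KO to the left of het within each class, with exact 95% Poisson intervals. ILC2s (12.9 CPM in KO, 124 CPM in het) and gdTcells (78.6 CPM in KO, 29.0 CPM in het) stand apart in opposite directions.

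Ptgds (chr2:25466709-25470046, minus strand) is the lipocalin-type PGD2 synthase. Its promoter (chr2:25469750-25469999, minus strand, RefSeq, GRCm38.p6) is shown because no other of the enzymes passed 1.5-fold in as many classes, with a match to the NF-kB motif, present in 7.25% of windows, in capitals.
Ptgds promoter: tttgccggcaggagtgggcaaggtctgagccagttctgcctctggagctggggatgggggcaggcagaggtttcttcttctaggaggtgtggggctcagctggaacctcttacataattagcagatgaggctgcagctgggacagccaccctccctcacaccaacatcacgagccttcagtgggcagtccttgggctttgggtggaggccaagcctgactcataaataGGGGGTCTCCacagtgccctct
The match lies 22 to 13 bases before the RefSeq start. That start lies inside the gene span given above, which comes from another annotation.

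Ptgds is a leading gene of cluster 5, so its height there describes the cluster. That cluster held 87.2% of all Ptgds UMIs of annotated KO cells and 79.2% of those of het cells. It had 14964 CPM in KO and 7802 CPM in het, a ratio of 1.92 (1.90 to 1.94). The counting interval is narrow because 111400 KO and 44128 het UMIs stand behind it, yet these came from few cells. No Ptgds UMI was found in 138 of 372 KO and 135 of 295 het cells. The top 10 cells held 46.3% of the UMIs in KO and 77.3% in het.

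At a cut of 1000 CPM per cell, chosen after the values were seen, 92 KO cells and 63 het cells of cluster 5 were Ptgds-rich, 24.7% (20.4 to 29.4) of the KO and 21.4% (16.8 to 26.5) of the het cells, with exact Clopper-Pearson intervals that overlap. They held 99.6% of its Ptgds UMIs in KO and 99.1% in het. Their level was 61140.3 CPM in KO and 37461 CPM in het. The median rich cell held 370 UMIs of Ptgds in KO and 101 in het, at median depths of 18015.5 UMIs in KO and 16442 UMIs in het. The other cells of cluster 5 had 78.7 CPM in KO and 89.8 CPM in het, a ratio of 0.876 (0.764 to 1.01). The cut itself sets that nearly all UMIs lie in the rich cells. The cut was set on Ptgds alone, and 14 KO and 31 het cells lay between 500 and 2000 CPM. Whether it parts cell types was not tested.

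**Figure D3:**
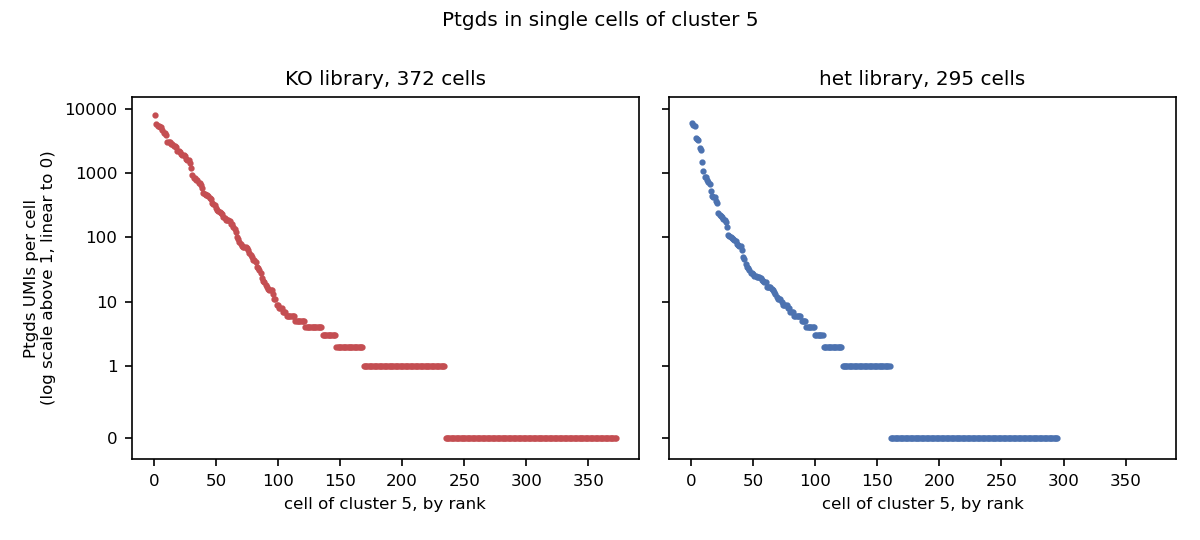
Ptgds UMIs (vertical axis, log scale) in each cell of cluster 5, ordered from the highest to the lowest, for 372 KO cells and 295 het cells. Counts run from 8025 in KO and 5874 in het down to 0.

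The Ptgds-rich cells also differed from the rest of their cluster in other genes, which the cut did not use. Slc6a13, a GABA and taurine transporter, had 1059.6 CPM in KO and 1101 CPM in het rich cells, and 115 CPM in KO and 218 CPM in het cells under the cut. Slc22a6, an organic anion transporter, had 375 CPM in KO and 385 CPM in het rich cells, and 29.3 CPM in KO and 26.7 CPM in het cells under the cut. Slc13a4, a sulfate transporter, had 277 CPM in KO and 168 CPM in het rich cells, and 30.2 CPM in KO and 31.6 CPM in het cells under the cut. Slc6a13, Slc22a6 and Slc13a4 were higher in the rich cells of each library, whereas Slc47a1, another transporter, was lower there. It had 61.7 CPM in KO and 19.7 CPM in het rich cells. Under the cut it had 179 CPM in KO and 169.5 CPM in het. Other barrier genes were mixed. Dpp4 was higher in rich cells, with 54.6 CPM in KO and 51.4 CPM in het. Under the cut Dpp4 had 11.5 CPM in KO and 8.91 CPM in het. Cdh1 had 43.5 CPM in KO and 34.3 CPM in het rich cells, against 29.1 CPM in KO and 31.9 CPM in het. Abcg2 was lower in rich cells, with 82.7 CPM in KO and 49.7 CPM in het, against 118 CPM in KO and 108 CPM in het. Cldn11 was lower too, with 633 CPM in KO and 625 CPM in het, against 795 CPM in KO and 731 CPM in het. Wnt4, a leading gene of cluster 5, was higher in rich cells, with 424 CPM in KO and 359 CPM in het. Under the cut Wnt4 had 67.7 CPM in KO and 105 CPM in het. The collagen gene Col1a1 was lower in rich cells, with 2493 CPM in KO and 2929 CPM in het. Under the cut Col1a1 had 4572 CPM in KO and 4121 CPM in het. Ptgs2 and Ptges were likewise lower in the rich cells. Ptgs2 had 24.8 CPM in KO and 15.4 CPM in het rich cells, and 78.5 CPM in KO and 82.4 CPM in het cells under the cut. Ptges had 29.8 CPM in KO and 35.1 CPM in het rich cells, and 62.5 CPM in KO and 59.5 CPM in het cells under the cut. Over the whole of cluster 5, Slc6a13 had 346 CPM in KO and 400.3 CPM in het, a ratio of 0.863 where that of Ptgds was 1.92.

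With cluster 5 included, Ptgds was higher in KO by 1.5-fold in 13 and lower in 2 of 18 classes, with a median ratio of 1.99. Further ratios were 1.63 in cluster 0, 2.07 in cluster 4, 2.32 in cluster 8 and 2.79 in cluster 12, and without the top cells 1.55, 1.90, 2.36 and 2.22 in that order. Fibroblast-like cluster 7 had 52.9 CPM in KO and 10.1 CPM in het, where 56.4% of the KO UMIs lay in 1 cell and the ratio of 5.25 was 3.07 without the top cells. Monocyte-like cluster 18 had 56.7 CPM in KO and 11.1 CPM in het, a ratio of 5.12 and 3.99 without them. The B cell-like clusters 1, 2, 6, 10 and 16 had ratios of 1.64, 5.83, 6.74, 1.77 and 12.6, and without the top cells 2.44, 3.802, 4.81, 2.11 and 4.21. In male cells those of clusters 1 and 10 were 0.897 and 0.600. Pooled, these B cell-like cells, a type not known to express it, had 61.4 CPM in KO and 15.2 CPM in het, with a Ptgds UMI in 24.1% of KO and 9.38% of het cells. After thinning each cell to 1000 UMIs the shares were 4.70% in KO and 1.87% in het, beside 4.24% in KO and 2.74% in het of cluster 0. Levels of this size were not read as expression by a class, and the B cell-like level itself differed between the libraries. Whether free RNA was its source was not tested. Single cells decided several other values. In cluster 3, with 1127 CPM in KO and 1014 CPM in het, the top cell held 71.2% of the KO and 52.7% of the het UMIs, and the ratio of 1.11 was 0.677 without them. In cluster 11, with 549 CPM in KO and 42.9 CPM in het, the top KO cell held 59.1%, and the ratio of 12.8 was 5.93 without the top cells and 3.56 without the cells of highest doublet score. In cluster 13 a het cell held 67.9%, and the ratio of 0.201 was 0.545 without the top cells. In cluster 17 a het cell held 84.9%, and the ratio of 0.315 was 1.34 without them. Over all barcodes of a library, annotated or not, Ptgds had 1441 CPM in KO and 1005 CPM in het, a ratio of 1.43, where annotated cells alone had 2.14.

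Hpgds (chr6:65117293-65144908, minus strand), the haematopoietic PGD2 synthase, was led among whole classes by macrophage-like cluster 3. It had 226 CPM in KO and 223 CPM in het there, a ratio of 1.01 (0.948 to 1.09). Mast cells, set apart within cluster 12 below, had 252 CPM in KO and 229 CPM in het, with overlapping intervals. Cluster 13 had 109 CPM in KO and 109.9 CPM in het, and cluster 11 had 94.3 CPM in KO and 97.9 CPM in het, neighbours whose counting intervals overlap. No cell of cluster 3 held more than 1.22% of its Hpgds UMIs. After thinning to 1000 UMIs, 22.3% of KO and 27.0% of het cells of cluster 3 had an Hpgds UMI, while 0.692% of KO and 0.571% of het B cell-like cells did. Unthinned, the shares in cluster 3 were 87.5% in KO and 89.0% in het. A cyclooxygenase and Hpgds were seen together in 245 of 440 KO and 276 of 446 het cells of that cluster. Hpgds was lower in KO by 1.5-fold in clusters 5 (2.55 CPM in KO, 6.19 CPM in het), 6 (2.71 CPM in KO, 4.34 CPM in het) and 12 (18.02 CPM in KO, 28.5 CPM in het). The values in clusters 5 and 6 lie near or under the B cell-like level of 4.47 CPM in KO and 6.44 CPM in het, and the ratio of cluster 6, 0.625, was 1.22 without the cells of highest doublet score, 2.04 in male cells and 1.21 with each cell weighing the same.

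Ltc4s (chr11:50236461-50238616, minus strand), the enzyme of cysteinyl leukotrienes, had the same 3 leading classes as Hpgds. It had 321 CPM in KO and 285 CPM in het in cluster 3, where it is one of the leading genes, a ratio of 1.13 (1.06 to 1.19). Cluster 13 had 141 CPM in KO and 124 CPM in het, and cluster 11 had 89.5 CPM in KO and 109 CPM in het. Hpgds and Ltc4s were seen together in 342 of 440 KO and 355 of 446 het cells of cluster 3, and in 5 of 2169 KO and 9 of 1929 het cells of the B cell-like clusters. Across 25 classes the log2 levels of the pair had a Pearson correlation of 0.913, a description in which the classes share their libraries. The promoters of the pair are shown because of this pattern, with GAGGAA and TTGCNNAA in capitals (RefSeq, GRCm38.p6, chr6:65144731-65144980, minus strand for Hpgds and chr11:50238533-50238782, minus strand for Ltc4s).
Hpgds promoter: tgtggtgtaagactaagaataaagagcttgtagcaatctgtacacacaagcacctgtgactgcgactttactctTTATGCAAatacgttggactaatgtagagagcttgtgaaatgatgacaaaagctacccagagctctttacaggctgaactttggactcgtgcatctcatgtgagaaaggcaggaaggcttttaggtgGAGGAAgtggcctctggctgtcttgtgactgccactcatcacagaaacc
Ltc4s promoter: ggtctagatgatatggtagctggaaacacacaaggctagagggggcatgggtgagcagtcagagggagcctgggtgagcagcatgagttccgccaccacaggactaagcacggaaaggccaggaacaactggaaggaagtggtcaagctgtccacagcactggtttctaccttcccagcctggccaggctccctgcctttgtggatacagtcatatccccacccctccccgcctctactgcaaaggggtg
GAGGAA lay 49 to 44 bases before the RefSeq start of Hpgds, and no searched motif was among the letters of the Ltc4s window. Of the 10 genes, 8 had a promoter in the table, all but Ptgis and Alox5ap. GAGGAA was in 6 of these 8 windows and in 23.3% of all 32851 windows. Among the 6 was that of Ptges, which was highest in stromal classes. Ltc4s passed 1.5-fold in cluster 14, with 6.37 CPM in KO and 17.04 CPM in het, a ratio of 0.374 (0.199 to 0.666) from 16 KO and 51 het UMIs, 18 of the het ones in 1 cell.

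Ptges (chr2:30889471-30929863, minus strand), the inducible PGE2 synthase, was highest in stromal classes among those with at least 50 cells in each library. Cluster 5 had 54.5 CPM in KO and 54.5 CPM in het, cluster 0 had 37.9 CPM in KO and 36.0 CPM in het, and osteolineage-like cluster 4 had 28.2 CPM in KO and 27.4 CPM in het. The ratios were 1.00 (0.862 to 1.17), 1.05 (0.952 to 1.17) and 1.03 (0.826 to 1.29) in that order. None of the 7 classes compared passed 1.5-fold. The lowest ratio was that of cluster 7, 0.690 (0.531 to 0.895), with 19.8 CPM in KO and 28.7 CPM in het. B cell-like clusters had 1.33 CPM in KO and 1.52 CPM in het. Cluster 21, with 38 KO and 29 het cells too small to be compared, had 46.0 CPM in KO and 56.8 CPM in het.

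Ptgis (chr2:167191805-167240604, minus strand), the prostacyclin synthase, was led by cluster 0, with 199.5 CPM in KO and 201 CPM in het, a ratio of 0.994 (0.952 to 1.04). Cluster 4 had 184 CPM in KO and 194 CPM in het, and cluster 7 had 85.8 CPM in KO and 74.2 CPM in het. Cluster 4 lay above cluster 7 in both libraries, beyond the intervals. Blood endothelial-like cluster 8 had 68.0 CPM in KO and 47.5 CPM in het. The calls past 1.5-fold were at low levels. Ptgis was lower in KO in clusters 11 (3.20 CPM in KO, 8.19 CPM in het) and 14 (5.17 CPM in KO, 14.0 CPM in het), and higher in clusters 6 (4.64 CPM in KO, 2.71 CPM in het) and 12 (15.5 CPM in KO, 3.87 CPM in het). In male cells the ratio of cluster 6 was 0.684 in place of 1.71. B cell-like clusters had 4.10 CPM in KO and 4.33 CPM in het. In cluster 12 the summed fibroblast markers had 2887 CPM in KO and 736 CPM in het, with 1 of the 7 at 0 in het, and their part in the Ptgis ratio of 4.02 (2.17 to 8.01) was not tested.

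Hpgd (chr8:56294585-56321043, plus strand), the dehydrogenase that inactivates prostaglandins, had 356 CPM in KO and 301 CPM in het in cluster 3, a ratio of 1.18 (1.12 to 1.25). Monocyte-like cluster 18 had 252 CPM in KO and 243 CPM in het, and cluster 11 had 197 CPM in KO and 191 CPM in het. Osteolineage-like cluster 4 was next by the mean of both libraries, with 204 CPM in KO and 166 CPM in het, so that myeloid and bone-lineage classes both held the gene. Hpgd was lower in KO by 1.5-fold in clusters 6 (3.35 CPM in KO, 6.91 CPM in het), 7 (14.4 CPM in KO, 21.7 CPM in het), 10 (2.19 CPM in KO, 15.1 CPM in het) and 15 (17.1 CPM in KO, 37.9 CPM in het). Clusters 6 and 10 are B cell-like, and without the cells of highest doublet score their ratios were 1.53 in place of 0.485 and 4.22 in place of 0.145. In female cells the ratio of cluster 7 was 1.05 in place of 0.663.

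Alox5 (chr6:116410077-116461178, minus strand), the 5-lipoxygenase, had its highest level in cluster 13, with 59.95 CPM in KO and 60.4 CPM in het, a ratio of 0.993 (0.823 to 1.20). ILC2s had 25.8 CPM in KO and 34.6 CPM in het, from 16 KO and 26 het UMIs, a ratio of 0.747 (0.375 to 1.45). Cluster 3 had 17.3 CPM in KO and 16.4 CPM in het. The B cell-like level was 0.213 CPM in KO and 0.234 CPM in het. The second place of ILC2s among whole classes rests on few molecules, although their intervals in both libraries lie above the B cell-like level. Split by which markers prevailed, a division made after the values were seen, 176 KO and 158 het cells of cluster 13 had more neutrophil than macrophage marker UMIs. Those cells had 61.1 CPM of Alox5 in KO and 62.7 CPM in het.

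Alox5ap (chr5:149264767-149288153, plus strand), the partner protein of Alox5, had a wider myeloid pattern. Of whole classes, monocyte-like cluster 18 was highest, with 1185 CPM in KO and 1058 CPM in het, a ratio of 1.12 (1.04 to 1.21). Basophils within cluster 12 were higher, with 1989 CPM in KO and 1989.6 CPM in het. Dendritic cell-like cluster 14 had 692 CPM in KO and 722 CPM in het, and cluster 13 had 599.5 CPM in KO and 577 CPM in het. Cluster 14 held much Alox5ap while it had 0 UMIs of Alox5 in KO, which allows up to 1.19 CPM, and 2 in het. Ltc4s in cluster 18 was at 9.45 CPM in KO and 7.92 CPM in het. The genes of all steps to cysteinyl leukotrienes were seen together in 74 of 440 KO and 65 of 446 het cells of cluster 3. Alox5ap passed 1.5-fold in cluster 4 (8.55 CPM in KO, 4.63 CPM in het), with a ratio of 1.85 and 1.45 without the top cells, in cluster 5 (8.60 CPM in KO, 13.3 CPM in het), with a ratio of 0.648, and in cluster 12.

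Cluster 12 held mast cells, basophils, granulocyte progenitors and many cells assigned to none of these, and the mix differed between libraries. Of the 10 enzymes compared there, 4 were lower and 2 higher in KO, while 5.13% of all genes in that cluster were lower and 11.8% higher. By the markers of each cell, 27 KO and 41 het cells were mast cells, 13 KO and 17 het cells basophils, 20 KO and 38 het cells progenitors, and 154 KO and 70 het cells were left unassigned. Mast cell markers summed to 6708 CPM in KO and 13296 CPM in het over the cluster, with none of the 7 at 0. Their part in the cluster's ratios was not tested, but the values within each cell type can be given.

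At the level of the whole cluster Alox5ap had 149 CPM in KO and 245 CPM in het, a ratio of 0.608 (0.544 to 0.678), and Hpgds a ratio of 0.631 (0.454 to 0.874). Within basophils Alox5ap had 1989 CPM in KO and 1989.6 CPM in het, a ratio of 1.000 (0.848 to 1.18). Within mast cells Hpgds had 252 CPM in KO and 229 CPM in het, a ratio of 1.10 (0.756 to 1.58). Neither of these ratios differed from 1 beyond counting error. That of Alox5ap in mast cells did, with 159.7 CPM in KO and 289.8 CPM in het, a ratio of 0.551 (0.359 to 0.826). Progenitors had 209 CPM of Alox5ap in KO and 239 CPM in het, a ratio of 0.873 (0.719 to 1.06). Unassigned cells had 30.8 CPM in KO and 43.2 CPM in het, a ratio of 0.714 (0.507 to 1.01). Alox5 had 82.3 CPM in KO and 72.5 CPM in het mast cells, and 237 CPM in KO and 177 CPM in het basophils. Ptgs2 had 0 UMIs in the 13 KO basophils, which allows up to 23.0 CPM, and 30 UMIs in 7 of 17 het basophils, or 171 CPM.

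**Figure D4:**
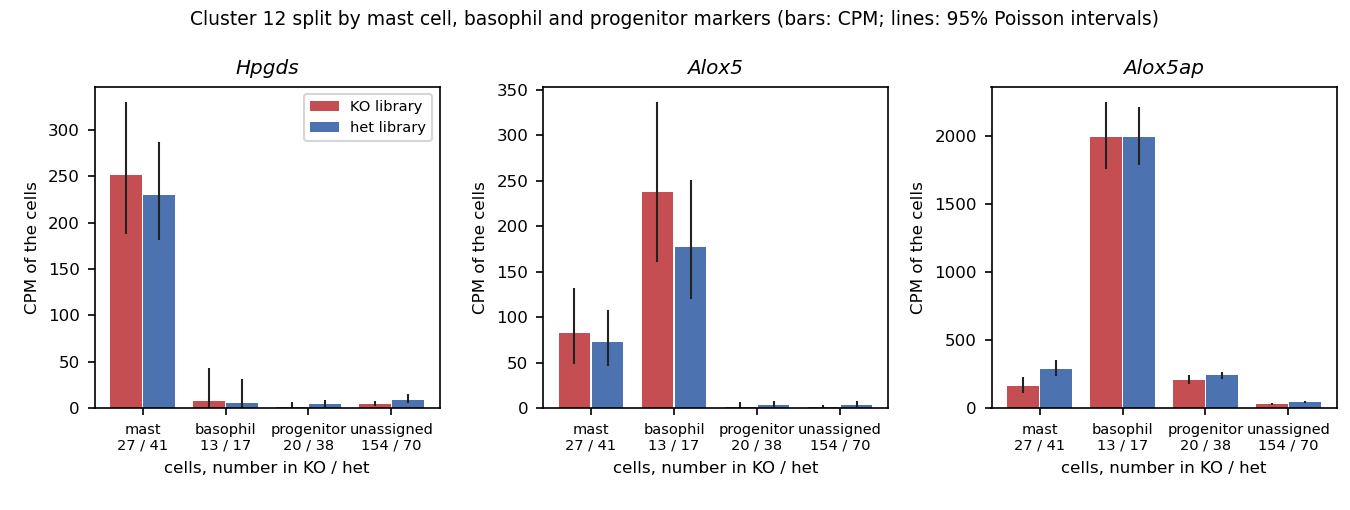
Level (CPM, vertical axes) of Hpgds, Alox5 and Alox5ap in the cells of cluster 12 split by marker genes, KO bars left of het bars, with exact 95% Poisson intervals. Hpgds stands in mast cells (252 CPM in KO, 229 CPM in het) and Alox5ap in basophils (1989 CPM in KO, 1989.6 CPM in het).

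Over all 10 genes, 101 gene and class pairs had at least 50 UMIs, of 220 in the 22 classes with at least 50 cells per library. Of these, 19 were lower (18.8%) and 18 higher (17.8%) in KO by 1.5-fold, and 64 lay within it, where all genes had 4.36% lower and 3.77% higher. The share of genes past the fold in either direction ranged from 3.71% to 16.9% between classes. Ptgds made 13 of the higher pairs and 2 of the lower ones, and the other genes 5 and 17 of 83. With at least 100 UMIs the lower pairs were 10, a count given without the share over all genes at that setting. Among the 3 leading classes of each gene, those past 1.5-fold were cluster 5 and cluster 11 for Ptgds and ILC2s for Ptgs2.

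**Figure D5:**
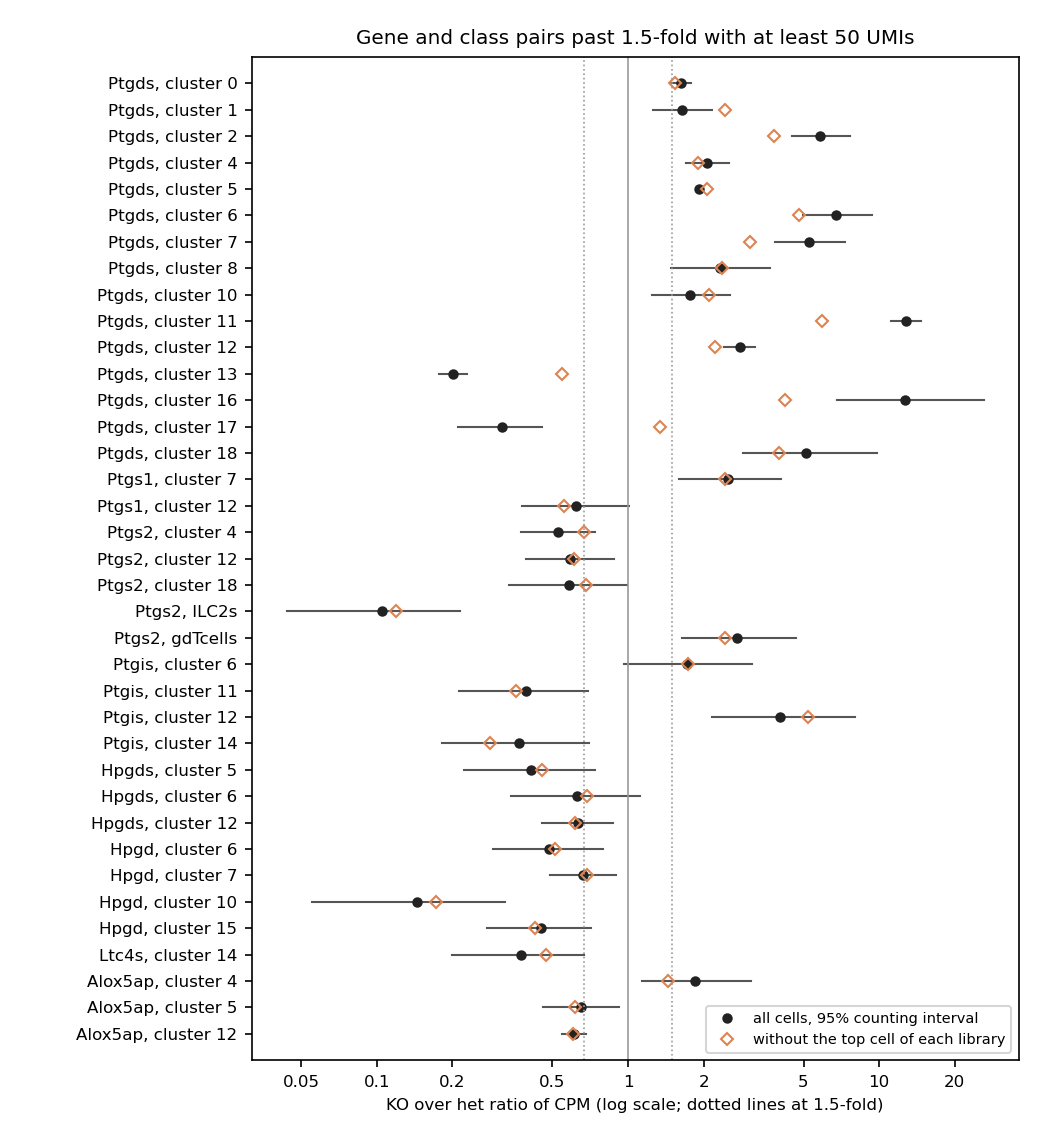
Ratio of KO over het (horizontal log axis) for the gene and class pairs past 1.5-fold, with exact 95% counting intervals; open symbols leave out the top cell of each library. Most pairs on the higher side are Ptgds, and for Ptgds in cluster 17 the ratio of 0.315 is 1.34 without the top cells.

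The rest of the pathway was read from 5 lists of 55 genes, with 403 gene and class pairs of enough UMIs. Of these, 19 were lower (4.71%) and 10 higher (2.48%) in KO, near the 4.36% lower and 3.77% higher of all genes. Single lists have few pairs to set beside those shares. The list named arachidonate release had 4 lower and 1 higher of 56 pairs. It also holds Pla2g7, which acts on platelet-activating factor and gave lower pairs in clusters 4 and 14. Other prostaglandin enzymes had 4 lower and 3 higher of 153 pairs, and other leukotriene enzymes 3 and 3 of 123. In macrophage-like cluster 3 the other prostaglandin enzymes had a median log2 ratio of 0.06 over 12 genes, beside -0.01 over all genes. Some list genes are named here by their highest class, after the values were seen. Pla2g4a, the cytosolic phospholipase that frees arachidonic acid, was highest in cluster 5, with 133 CPM in KO and 119.9 CPM in het. Tbxas1, the thromboxane synthase, was highest in cluster 3, with 94.2 CPM in KO and 80.4 CPM in het. Lta4h, which makes leukotriene B4, was highest in cluster 13, with 108 CPM in KO and 132 CPM in het.

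Of the list genes past 1.5-fold in a leading class of an enzyme, Pla2g7, which breaks down platelet-activating factor, was lower in KO in cluster 14 (2.79 CPM in KO, 18.7 CPM in het), where 1 cell held 30 of the 56 het UMIs, and in cluster 4 (3.42 CPM in KO, 5.40 CPM in het). Pla2g6, a calcium-independent phospholipase, was lower in cluster 4 (4.84 CPM in KO, 8.30 CPM in het). Mgst2, a microsomal glutathione transferase, was higher in clusters 11 (6.403 CPM in KO, 2.73 CPM in het) and 18 (37.8 CPM in KO, 18.997 CPM in het), and Dpep2, a dipeptidase of leukotriene conversion, in cluster 13 (12.6 CPM in KO, 7.12 CPM in het). In cluster 14 Akr1b10 (15.5 CPM in KO, 24.7 CPM in het), Cbr1 (12.3 CPM in KO, 20.7 CPM in het) and Mgst3 (13.9 CPM in KO, 23.7 CPM in het) were lower.

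Of 15 genes listed as receptors for these lipids, 4 had their highest level in ILC2s, a grouping made after the values were seen. No share over all genes is given beside that count. Ptgdr2, a PGD2 receptor on the same list, had 0 CPM in KO and 1.33 CPM in het ILC2s. Ltb4r1, the leukotriene B4 receptor, had 483 CPM in KO and 452 CPM in het ILC2s, followed by gdTcells with 359.9 CPM in KO and 401 CPM in het. Cysltr1, a receptor of cysteinyl leukotrienes, had 231 CPM in KO and 183 CPM in het ILC2s, a ratio of 1.26 (0.989 to 1.60), followed by cluster 11 with 85.0 CPM in KO and 69.4 CPM in het. Ptgir, the prostacyclin receptor, had 61.4 CPM in KO and 69.1 CPM in het ILC2s. Ptger4, a PGE2 receptor, passed 1.5-fold there, with 90.4 CPM in KO and 58.5 CPM in het, a ratio of 1.55 (1.02 to 2.35). Ptgdr, a PGD2 receptor, was highest in cluster 0, with 74.5 CPM in KO and 73.7 CPM in het, next to cluster 5 with 69.0 CPM in KO and 67.4 CPM in het. Prostanoid receptors had 4 lower and 2 higher of 52 pairs, and the list of leukotriene receptors 4 and 1 of 19. All genes had 4.36% lower and 3.77% higher. The leukotriene list also holds Gpr17 and Fpr2, which gave lower pairs in cluster 15 and cluster 11. The other receptors past 1.5-fold in a leading class were Ptger1 in cluster 0 (9.30 CPM in KO, 14.5 CPM in het), Ptger3 in cluster 7 (5.82 CPM in KO, 10.3 CPM in het), Ltb4r1 in clusters 3 (4.80 CPM in KO, 8.00 CPM in het) and 14 (21.9 CPM in KO, 11.7 CPM in het), Fpr2 in cluster 11 (5.34 CPM in KO, 10.9 CPM in het) and Ptgdr in cluster 14 (7.56 CPM in KO, 11.7 CPM in het).

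Genes of like pattern were ranked by Pearson correlation of log2 levels over 25 classes among 8048 genes, as a description. Ptgds was most like Slc22a6 (0.889), Aox3 (0.879) and Slc6a20a (0.878). Ptgs1 was most like Cracr2b (0.891), Slco2b1 (0.876) and Rgl2 (0.876), and Ptgs2 like Serpinb6a (0.825), Ppp1r15a (0.824) and Mdfic (0.807). Ptges was most like Pdpn (0.941), which encodes the gp38 of the stromal sort, Cacna1g (0.907) and Dfna5 (0.891). Ptgis was most like Flrt2 (0.965), Mfap2 (0.962) and Fkbp7 (0.961). Cd163, a macrophage scavenger receptor, was the gene most like both Hpgds (0.947) and Ltc4s (0.972). Hpgds was next most like Cbr2 (0.933) and C3ar1 (0.932), and Ltc4s like Fcrls (0.961) and Folr2 (0.959). Hpgd was most like Ctsb (0.918), Hmox1 (0.899) and Ctsa (0.887). Alox5 was most like Lilr4b (0.895), Cxcl2 (0.872) and Lilrb4a (0.862), and Alox5ap like Clec12a (0.941), Ccl6 (0.938) and Il1b (0.933). Among the enzymes themselves Ptges and Ptgis had 0.727, and Ptgis and Alox5 -0.206.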

How the data were processed

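The authors deposited UMI counts per gene and barcode for each library. The submitters' processing notes name Cell Ranger 3.0.2 and the build mm10, and no other setting is given in the sources at hand. The deposited metadata gave clusters and a sex label, and 4 names for cells of cluster 9 came from a second deposited file. UMIs of annotated cells were summed per class and library and scaled to CPM (Python 3.11.15, numpy 2.4.6, scipy 1.17.1), and the ratio step was tested on simulated data. A pair was called at 1.5-fold with at least 50 UMIs over both libraries and 50 cells in each. A count of 0 was taken to allow 3 counts, and intervals and floors cover counting error only. Genes named are the 10 enzymes in their 3 leading classes and wherever past the fold, list genes past the fold in such a class, and the 3 genes most like each enzyme by log2(CPM + 5), among genes reaching 50 CPM in a class. Members and lists were chosen with earlier results of these data known. Scrublet (scanpy 1.11.5) called 0% of KO and 0.0183% of het barcodes and so did not work as a caller. No doublet was removed, and the 8% of barcodes with the highest scores were left out as an alternative. In cluster 12 a cell went to the marker list with most of its UMIs, at least 3. Gene positions come from GENCODE M21 (GRCm38) and promoter starts from RefSeq, so some promoter windows overlap the gene span given. Cells with a female label and no Y-linked UMI numbered 2442 in KO and 2620 in het, and those with a male label and such a UMI 2862 in KO and 2346 in het.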

Additional observations from a re-analysis of the deposited data

Results flagged for a closer look

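The ratio of KO over het lay on opposite sides of 1 in the sexes for Ptgds in cluster 3, at 1.15 in female cells (355 CPM in KO, 309.9 CPM in het) and 0.212 in male cells (312 CPM in KO, 1472 CPM in het). In the whole of cluster 3 the top cell held 5849 of 8216 UMIs in KO and 4139 of 7861 in het, and both KO values lie under the 1127 CPM of all KO cells of the cluster, some of which were counted in neither sex. Ptgis in cluster 0 had 0.796 in female and 1.12 in male cells. These differences between the sexes were not tested, and each sex is 1 pool per genotype.

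Some genes passed 1.5-fold in opposite directions in different classes. Ptgds was lower in KO in cluster 13 (0.201, and 0.545 without the top cells) and cluster 17 (0.315, and 1.34 without them), and higher in 13 classes, many of them B cell-like or near the B cell-like level of 61.4 CPM in KO and 15.2 CPM in het. Ptgs2 was higher in gdTcells (2.71) and lower in 4 classes. Ptgis was higher in cluster 12 (4.02) and cluster 6 and lower in 2 classes, and Alox5ap was higher in cluster 4 (1.85) and lower in 2, with median ratios of 0.994 and 1.000 over all classes compared. The Alox5ap levels of cluster 4 lay under the B cell-like level. The differences between classes were not tested.

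Barcodes without an annotation also carried the enzymes. Ptgds had 1721 CPM in KO and 2293 CPM in het among them, the opposite order to annotated cells, and the top barcode held 7978 UMIs in KO and 9618 UMIs in het. Ptgs2 had 40.3 CPM in KO and 50.9 CPM in het there.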

How the results depend on the processing

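No paired analysis was possible because each genotype has 1 library, and for the same reason no replicate could be left out. The count of lower pairs, 19, became 9 without the cells of highest doublet score, 4 in female cells, 10 with at least 100 UMIs and 10 at 2-fold. The count of higher pairs, 18, became 10 in female cells, 11 in male cells and 31 with at least 20 UMIs. These settings also change how many pairs and genes are compared, and no share over all genes is given for them. Of 64 ratios, 63 stayed within their counting interval under median of ratios scaling, 53 without the top cells, 48 without the cells of highest doublet score, 30 in female and 34 in male cells. Some crossed 1. Ptgds in cluster 17 was 1.34 without the top cells, 2.37 without the cells of highest doublet score, 2.63 in female and 1.28 in male cells. Without the cells of highest doublet score Hpgd was 4.22 in cluster 10 and 1.53 in cluster 6, and Hpgds 1.22 in cluster 6. In female cells Hpgd was 1.05 and Ptgs1 0.949 in cluster 7, and Ptgs2 2.01 in cluster 4. In male cells Hpgds was 2.04 and Ptgis 0.684 in cluster 6, and Ptgds 0.897 in cluster 1 and 0.600 in cluster 10. With each cell weighing the same, Hpgds was 1.21 in cluster 6, Ptgs1 1.27 in cluster 12 and Ptgs2 1.23 in cluster 4. The cause was not tested. The ratio for Ptgs2 in ILC2s rests on 8 KO and 93 het UMIs.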
